A study of Mus musculus with 6 samples.

Results

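The genes described are 10 regulators of the G1 phase of the cell cycle: the CDK inhibitor genes Cdkn1a, Cdkn1b, Cdkn2a, Cdkn2b, Cdkn2c and Cdkn2d, the pocket protein genes Rb1, Rbl1 and Rbl2, and the cyclin gene Ccnd1. They were taken by symbol from the 49315 mouse genes in the deposited count table, and all 10 were found and passed the low-count filter. Their levels were compared between 2 lines of immortalized mouse keratinocytes, with 3 libraries each. The Control group is MK-546 (MK-/-), keratinocytes from skin that lack the α3 integrin subunit. The 3A group is MK-546-ha3A (MK-/-:ha3), the same line given human α3, so both groups lack mouse α3 and share the immortalized state. Both were untreated, were kept at 33 °C with 8% CO2 in low-calcium medium on collagen, and were harvested at about 50 to 80% confluence. Each group is 1 cell line, and the sources used here give neither the vector and promoter that drive human α3 nor the agent used for immortalization.

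Cyclin D1 binds CDK4 or CDK6, and the active kinase phosphorylates the pocket proteins RB (Rb1), p107 (Rbl1) and p130 (Rbl2), which otherwise hold E2F transcription factors in check. The INK4 proteins p16 (from Cdkn2a), p15 (Cdkn2b), p18 (Cdkn2c) and p19 (Cdkn2d) bind CDK4 and CDK6 and block their pairing with D cyclins, whereas p21 (Cdkn1a) and p27 (Cdkn1b) bind cyclin-CDK complexes and inhibit CDK2 in particular. In skin, p21, p27 and p15 are known for their part in the exit of keratinocytes from the cycle, and the pocket proteins are frequent targets of immortalizing agents. The Kip gene Cdkn1c is not among the genes described.

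The libraries held between 25634204 and 36245240 counts. Control 1 stood apart from its group: across genes, its log2 CPM (counts scaled to the size of the library) correlated at 0.957 and 0.953 with Control 2 and Control 3 and at 0.955 with 3A 2, against 0.988 between Control 2 and Control 3. Transcripts of the mitochondrial genome took 1.17% of the counts in Control 1 and 4.19% and 4.73% in Control 2 and Control 3, compared with 1.24% to 1.59% in the 3 libraries of 3A. Of the 9 keratinocyte markers, 8 were abundant and Krt15 was low (82 to 116 counts in Control and 2 to 12 in 3A). Their summed level was 9493 to 10970 CPM in Control and 6667 to 8517 CPM in 3A. Of 5 differentiation markers, Krt1 and Flg were at 0 or 1 count in all libraries together. Krt10 (25 to 70 counts), Ivl (193 to 386) and Lor (17 to 92) were counted in every library. The 5 summed to 8.46 to 20.0 CPM in Control and 10.7 to 13.2 CPM in 3A. The fibroblast, leukocyte, melanocyte and endothelial markers summed to at most 3.40, 20.1, 1.68 and 1.00 CPM in any library, the leukocyte sum being almost all Cd68. The part of these differences in the results below was not tested, apart from the fits without each library and with the mitochondrial share that are given.

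Of the 10 genes, Ccnd1 and Cdkn2b rose in 3A, Cdkn1b and Rbl2 fell, and the other 6 did not pass the test. The quasi-likelihood test of edgeR was used, its p-values were adjusted by Benjamini-Hochberg over the 13704 tested genes, and a gene was called at an adjusted p under 0.05. These 4 of 10 stand against 14.9% of all tested genes (7.52% higher and 7.39% lower), and 6 of the 10 had an unadjusted p under 0.05, against 34% of all tested genes. For 7 of the 10 the groups were free of overlap, against 36.1% of all tested genes. The median log2 fold change was -0.38 over the 10 genes and -0.02 over all tested genes. The 10 genes were chosen with earlier results of these data known, so these shares cannot show that they moved more often than other genes. In these bulk libraries, fewer cells with a transcript and less of it per cell cannot be told apart. Nothing in the labels says that replicates were separate cultures, so the p-values then rest on a spread that may be technical.

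**Figure D1:**
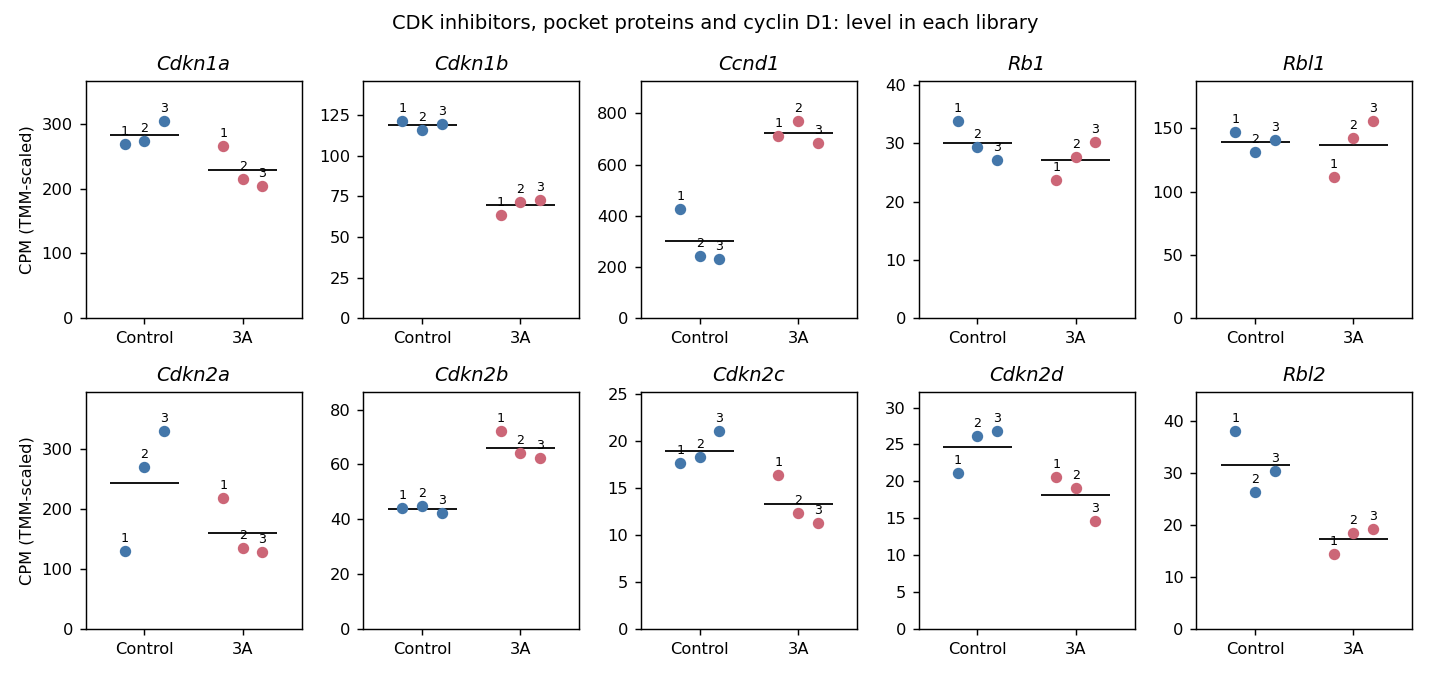
Level of each gene in CPM (linear axes from 0) in the 3 Control and 3 3A libraries, with the replicate number above each point and a line at the group mean. Ccnd1 and Cdkn2b lie higher in all 3 libraries of 3A, Cdkn1b and Rbl2 lower, and the groups overlap for Cdkn2a, Rb1 and Rbl1.

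Ccnd1 had the largest change of the 10 in the fit of all 6 libraries by group alone. With the mitochondrial share as a covariate, Rbl2 had a larger one (-1.11, against 0.82 for Ccnd1). Ccnd1 measured 427 (Control 1), 244 (Control 2) and 231 CPM (Control 3) against 713 (3A 1), 772 (3A 2) and 682 CPM (3A 3). Each 3A library exceeded every Control library, and Control 1 came nearest to them. Group means of 301 ± 110 CPM (Control) and 722 ± 45.4 CPM (3A; SD, n = 3) gave a log2 fold change of 1.26, with an SE of 0.26 and an edgeR adjusted p = 0.0206. Ccnd1 occupies chromosome 7 from 144929931 to 144939925 on the minus strand (GRCm38), and 1100 bp of its exons overlap LTO1 on the other strand, a gene at 8.13 to 12.6 CPM that was not called (log2 fold change -0.36). Ccnd1 is a target of several adhesion and growth factor pathways, which is background and not a measurement here.

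The other D cyclins were not called. Ccnd2, which encodes cyclin D2, ranged from 310 to 402 CPM in Control and from 347 to 364 CPM in 3A (log2 fold change 0.07, edgeR adjusted p = 0.783). Ccnd3 ranged from 65.2 to 95.5 CPM in Control and from 41.5 to 74.8 CPM in 3A (log2 fold change -0.61, edgeR adjusted p = 0.150). The kinase genes Cdk4 and Cdk6 had log2 fold changes of -0.29 and -0.13 and were not called. As a list, these 4 partners held 0 called genes by edgeR and by DESeq2, and 0 had an unadjusted p under 0.05. Without Control 1, edgeR called 2 of these 4 lower, Ccnd3 and Cdk4, in a fit that called 52% of all tested genes.

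Because reads per gene grow with transcript length, levels were compared between genes as CPM per kb of merged exons. On that scale Ccnd1 made up 69.2%, 54.1% and 47.8% of the summed D cyclin level of Control 1, 2 and 3, compared with 76.2%, 78.7% and 77.7% of 3A 1, 2 and 3. The share of Ccnd2 was 25.1% to 41.6% in Control and 18.5% to 19.8% in 3A, so the groups did not overlap for either cyclin. The 3 D cyclins summed to 110 ± 18.8 CPM per kb (SD, n = 3) in Control, compared with 198 ± 10.9 in 3A. Shares within a library do not depend on the scaling between libraries. With 3 libraries against 3, an exact two-sided permutation test of a single value cannot go below p = 0.1, so no test of shares is given.

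Of the Cip/Kip inhibitors, Cdkn1b fell and Cdkn1a was not called. Cdkn1b (chromosome 6, 134920401 to 134925513, plus strand) measured 122 (Control 1), 116 (Control 2) and 119 CPM (Control 3) against 63.6 (3A 1), 71.6 (3A 2) and 73.1 CPM (3A 3). The libraries within each group lay close together, with a wide gap between the groups. Mean levels were 119 ± 2.92 CPM and 69.5 ± 5.11 CPM (SD, n = 3). The log2 fold change was -0.78, with an SE of 0.13, and its edgeR adjusted p = 0.0106 was the smallest among the 10.

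Cdkn1a, which encodes p21 (chromosome 17, 29090976 to 29100727), measured 269 (Control 1), 273 (Control 2) and 305 CPM (Control 3) against 266 (3A 1), 215 (3A 2) and 204 CPM (3A 3). The groups were separated only by the narrow gap between Control 1 and 3A 1. The 95% confidence interval of its log2 fold change (-0.31) ran from -0.68 to 0.07, and edgeR's adjusted p = 0.214. Per kb, Cdkn1a was the more abundant of the pair in every library, with 73.9% to 76.6% of their summed level in Control and 78.2% to 84.3% in 3A. Together they reached 106 ± 5.59 CPM per kb (SD, n = 3) in Control, compared with 79.5 ± 8.12 in 3A.

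The ratio of Ccnd1 to Cdkn1b, 2 genes chosen for it after their values were seen, was 3.39, 2.03 and 1.87 on the per-kb scale in Control 1, 2 and 3. In 3A 1, 2 and 3 it was 10.8, 10.4 and 9.02.

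The INK4 genes went both ways. Cdkn2b, which encodes p15 and is known as a target of TGF-beta signalling, rose. Control 1, 2 and 3 held 44.3, 44.9 and 42.3 CPM, and 3A 1, 2 and 3 held 72.1, 64.0 and 62.3 CPM. Control varied little, and all 3A libraries lay above it. The log2 fold change was 0.59, with an SE of 0.14 and an edgeR adjusted p = 0.0295, at means of 43.8 ± 1.35 and 66.1 ± 5.21 CPM (SD, n = 3).

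Cdkn2a is the neighbour of Cdkn2b on chromosome 4 (minus strand, 89274471 to 89294653), and 11645 bp separate it from Cdkn2b (89306299 to 89311039). It encodes both p16 and ARF, a separate protein read in another frame that protects p53 from MDM2. The annotation gives these as 2 transcripts with different first exons, and counts per gene do not separate them. Cdkn2a measured 129 (Control 1), 270 (Control 2) and 329 CPM (Control 3) against 218 (3A 1), 134 (3A 2) and 129 CPM (3A 3). Control 1, 3A 2 and 3A 3 were low, Control 2 and Control 3 were high, and 3A 1 lay between, so the groups overlapped. The log2 fold change of -0.60 (SE 0.37, 95% confidence interval -1.46 to 0.27) was not called (edgeR adjusted p = 0.282). With the mitochondrial share of each library as a covariate, its sign turned (0.26, edgeR adjusted p = 0.472), and without Control 1 it was called lower (log2 fold change -0.89, edgeR adjusted p = 0.0147). The direction for Cdkn2a therefore differed between these fits, while its transcripts were present in every library with at least 4068 counts.

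Cdkn2c and Cdkn2d were lower in 3A by values that missed the threshold. Cdkn2c (p18; chromosome 4, 109660876 to 109667189) measured 17.6 (Control 1), 18.3 (Control 2) and 21.1 CPM (Control 3) against 16.4 (3A 1), 12.3 (3A 2) and 11.3 CPM (3A 3) (log2 fold change -0.51, edgeR adjusted p = 0.112). For Cdkn2d (p19; chromosome 9, 21288410 to 21291407) the same libraries gave 21.1, 26.2 and 26.8 CPM, then 20.5, 19.1 and 14.6 CPM (log2 fold change -0.45, edgeR adjusted p = 0.141). For both, the lowest Control library and 3A 1 were close, without overlap. Both had an unadjusted p under 0.05 (0.0315 and 0.0468), and both were called lower without Control 1.

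Within the INK4 family, Cdkn2a held the largest share of the summed level per kb in all 6 libraries. In Control 1, 2 and 3 it took 68.0%, 80.5% and 83.6%, and in 3A 1, 2 and 3 it took 72.4%, 64.6% and 65.3%. Cdkn2b took 19.7%, 11.3% and 9.05% of Control 1, 2 and 3, then 20.2%, 26.0% and 26.6% of 3A 1, 2 and 3. Control 1 and 3A 1 differed little in the Cdkn2b share, although no library of 3A fell below Control. Cdkn2c and Cdkn2d together were the minor part of the family, and their shares overlapped between groups.

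**Figure D2:**
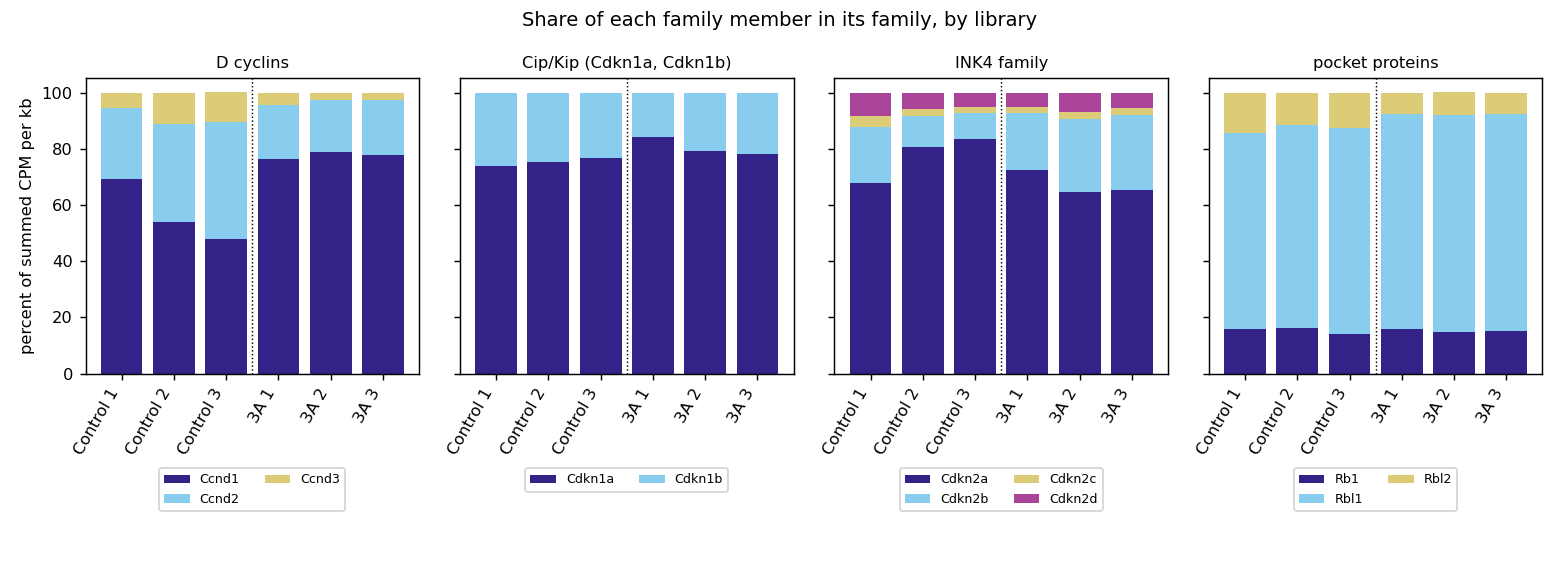
Share of each gene in the summed CPM per kb of its family (percent, bars from 0 to 100) in each library, for D cyclins, Cdkn1a with Cdkn1b, the INK4 genes and the pocket proteins. Ccnd1 takes 76.2% to 78.7% of the D cyclin level in 3A against 47.8% to 69.2% in Control, and Rbl2 takes 7.52% to 7.89% of the pocket protein level in 3A against 11.5% to 14.3% in Control.

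Among the pocket proteins, Rbl2 fell while Rb1 and Rbl1 were not called. Rbl2 encodes p130, which is known to occupy E2F sites with E2F4 and the MuvB proteins in resting cells. It lies on the plus strand of chromosome 8 at 91070057 to 91123844. It measured 38.0 (Control 1), 26.2 (Control 2) and 30.4 CPM (Control 3) against 14.3 (3A 1), 18.4 (3A 2) and 19.1 CPM (3A 3). Every library of 3A lay below every library of Control, and Control 1 was the highest. The mean went from 31.5 ± 5.97 to 17.3 ± 2.57 CPM (SD, n = 3), and the log2 fold change was -0.87 with an SE of 0.20 (adjusted p = 0.0294 by edgeR). Of the Rbl2 exons, 693 bp overlap Aktip on the other strand, which had a log2 fold change of -0.04. Gm45464, also on the other strand, shares 892 bp of exon with Rbl2. It was counted, but its level is not reported here. Whether reads were counted by strand is unknown from the labels.

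Rb1 (chromosome 14, 73183673 to 73325822) measured 33.9 (Control 1), 29.3 (Control 2) and 27.1 CPM (Control 3) against 23.6 (3A 1), 27.6 (3A 2) and 30.3 CPM (3A 3). The groups overlapped, and a log2 fold change of -0.15, with bounds of -0.53 and 0.24 at 95% confidence, was not called (edgeR adjusted p = 0.542). Rb1 shares 488 bp of exon with Rcbtb2 on the other strand, whose mean went from 4.92 ± 1.34 CPM down to 0.0280 ± 0.0287 CPM (SD, n = 3), and 408 bp with Lpar6. Rcbtb2 and Lpar6 were looked up only for this overlap. Rbl1, which encodes p107 (chromosome 2, 157145893 to 157204534), gave 147, 131 and 141 CPM in Control 1, 2 and 3, then 112, 142 and 156 CPM in 3A 1, 2 and 3. Its log2 fold change was -0.03, with bounds of -0.42 and 0.36 at 95% confidence (edgeR adjusted p = 0.917). Its sign depended on the scaling and on the libraries used.

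Rbl1 was the main pocket protein transcript per kb in every library, with 69.7% to 73.4% of the family in Control and 76.2% to 77.5% in 3A. Rb1 held 14.1% to 16.1% in Control and 14.9% to 16.0% in 3A. Rbl2 took 14.3%, 11.5% and 12.6% of Control 1, 2 and 3, then 7.74%, 7.89% and 7.52% of 3A 1, 2 and 3, with no overlap. The sum of the 3 genes overlapped between groups, at 32.5 ± 2.53 CPM per kb (SD, n = 3) for Control and 29.6 ± 4.67 for 3A.

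Ordered by mean CPM per kb, the 10 genes in Control ran from Cdkn2a (207 ± 87.8), Cdkn1a (79.4 ± 5.56) and Ccnd1 (63.9 ± 23.4) through Cdkn2b, Cdkn1b, Rbl1, Cdkn2d and Cdkn2c to Rb1 and Rbl2 (4.17 ± 0.790). Neighbours whose libraries overlapped in Control were Cdkn1a with Ccnd1 and Rb1 with Rbl2. In 3A the order began with Ccnd1 (153 ± 9.65), Cdkn2a (137 ± 42.8) and Cdkn1a (64.3 ± 9.25), and Rbl2 (2.28 ± 0.340) was again last. The neighbours that overlapped in 3A were Ccnd1 with Cdkn2a and Cdkn2c with Rb1. Merged exons of all annotated transcripts, those with retained introns included, set these lengths.

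None of the 4 calls held in every fit that left out 1 library. Without Control 1, 7 of the 10 were called (2 higher and 5 lower), against 52.0% of all genes tested in that fit. The 7 were the 4 named above with Cdkn2a, Cdkn2c and Cdkn2d, and Ccnd1 then had a log2 fold change of 1.62. Without Control 3 and without 3A 1, only Cdkn1b was called, against 6.98% and 9.18% of all genes. Without Control 2, 3A 2 or 3A 3, edgeR called 0 of the 10, against 5.99%, 4.72% and 4.77% of all genes called. In each of these fits 4 of the 10 had an unadjusted p under 0.05. The share of all genes at that unadjusted threshold is not given for these fits. Over the 6 fits that each left out 1 library, the log2 fold change of Ccnd1 ranged from 1.10 to 1.62 and that of Cdkn2b from 0.54 to 0.64. Cdkn1b ranged from -0.81 to -0.71 and Rbl2 from -0.99 to -0.70, so the 4 directions were kept. DESeq2 called the same 4 genes with all 6 libraries, against 26.0% of all genes. In a fit with the mitochondrial share of each library as covariate, an alternative chosen after seeing the data, the same 4 were called, against 18.3% of all genes, and Ccnd1 had a log2 fold change of 0.82 (edgeR adjusted p = 0.00559).

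**Figure D3:**
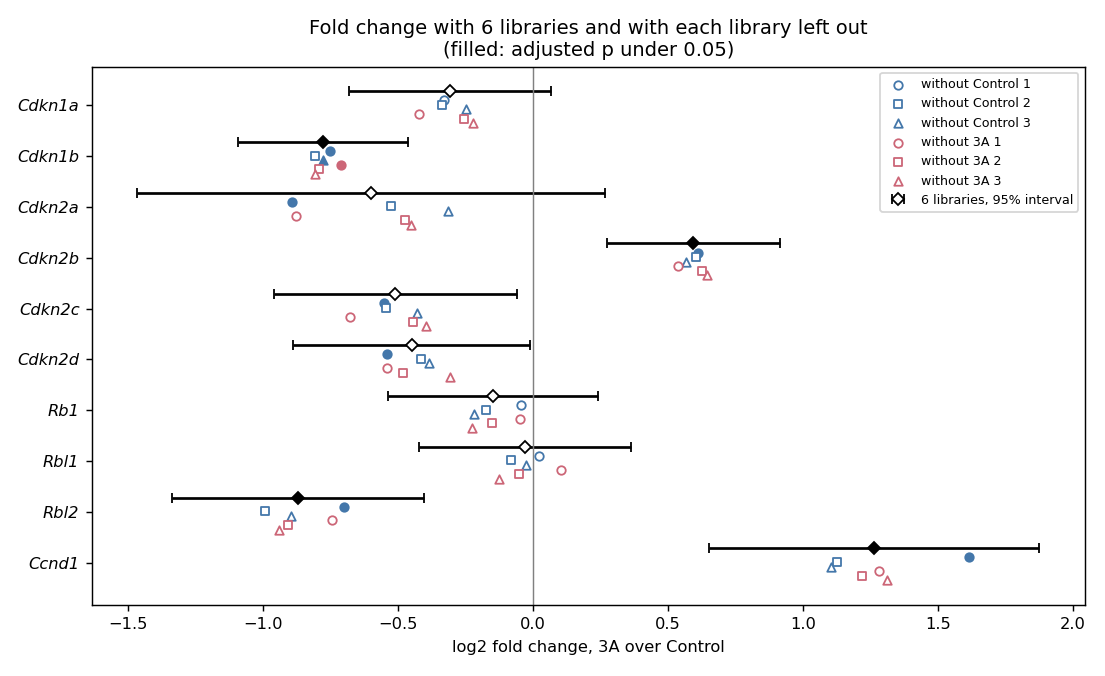
Log2 fold change of 3A over Control for each gene with 6 libraries (diamonds, with 95% confidence intervals) and with each library left out in turn (small symbols). Filled symbols have an adjusted p under 0.05. The 4 called genes keep their side of 0 in every fit shown, and Cdkn1b is filled in 3 of the 6 fits with a library left out.

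Upstream sequence is shown for the called genes that the RefSeq promoter table (GRCm38.p6) holds, since these are the members that moved. The table matched 8 of the 10 genes, and Rb1 and Ccnd1 were not matched. Each window shown runs from 250 to 11 bases before the RefSeq start, 240 bases 5′ to 3′ on the gene's strand, and holds no annotated exon. Capitals mark matches, on either strand, to 7 motifs: E2F (TTTCGCGC, TTTGGCGC, TTTCCCGC or TTTGCCGC), CRE (TGACGTCA), AP-1 (TGANTCA), FOXO (GTAAACA), CHR (TTTGAA), the GC box (GGGCGG) and the CCAAT box (CCAAT). No 2 matches overlapped. These motifs were picked as common elements of cell cycle promoters after the values were seen. The windows lie at chr6:134920151-134920390 (plus strand, Cdkn1b), chr8:91069807-91070046 (plus strand, Rbl2) and chr4:89311043-89311282 (minus strand, Cdkn2b).
Cdkn1b: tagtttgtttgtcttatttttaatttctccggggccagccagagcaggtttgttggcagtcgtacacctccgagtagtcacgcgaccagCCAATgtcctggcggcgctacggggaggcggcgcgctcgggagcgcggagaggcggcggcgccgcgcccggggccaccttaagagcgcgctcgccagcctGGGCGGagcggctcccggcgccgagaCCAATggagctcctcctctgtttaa
Rbl2: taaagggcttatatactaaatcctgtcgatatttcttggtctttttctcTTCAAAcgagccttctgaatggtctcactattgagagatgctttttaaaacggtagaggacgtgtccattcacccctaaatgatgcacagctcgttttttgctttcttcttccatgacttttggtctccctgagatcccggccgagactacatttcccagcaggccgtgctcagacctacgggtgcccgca
Cdkn2b: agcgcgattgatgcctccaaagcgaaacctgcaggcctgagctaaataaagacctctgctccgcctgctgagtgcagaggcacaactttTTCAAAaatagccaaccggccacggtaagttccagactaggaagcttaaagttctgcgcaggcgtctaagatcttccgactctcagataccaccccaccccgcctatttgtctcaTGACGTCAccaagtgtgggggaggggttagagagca

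The window of Cdkn1b held 2 CCAAT boxes and 1 GC box, that of Rbl2 held 1 CHR match, and that of Cdkn2b held 1 CRE and 1 CHR match. Among 32817 windows of the same length in the table, 33.0% held a CCAAT box, 31.3% a GC box, 15.5% a CHR match and 1.44% a CRE. The falling genes Cdkn1b and Rbl2 shared none of the 7 motifs in these windows. An E2F match, found in 1.74% of all windows, was present in 1 window of Cdkn2a and in that of Rbl1, neither of which was called. The AP-1 and FOXO motifs (6.59% and 3.06% of all windows) had no match in the windows of the 8 genes, which says only that these letters were not there. The match of Rbl1 lies at the end of the stretch chr2:157204545-157204604 (minus strand, 60 bases), shown because Rbl1 is the most abundant pocket protein transcript.
Rbl1: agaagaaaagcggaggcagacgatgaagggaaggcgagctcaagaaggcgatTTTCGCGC

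Among the other genes of the G1/S pathway, 5 of 71 tested rose and 3 fell. The 72 genes of these 8 lists were counted, and E2f2 alone was too low to be tested. Their median log2 fold change was 0.07, and 13 were higher and 6 lower at an unadjusted p under 0.05, which 34% of all tested genes had. The share called in either direction over all tested genes was 14.9%, as given above. In the fit without Control 1, 22 rose and 13 fell, whereas leaving out another library left at most 2 and 1. All tested genes moved likewise, with 52% called without Control 1 and 4.72% to 9.18% without another library. With the mitochondrial share as a covariate, edgeR called 7 higher and 4 lower, against 18.3% of all genes. Cdk7, Lin37 and Rrm1, called with group alone, were not called in that fit.

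**Figure D4:**
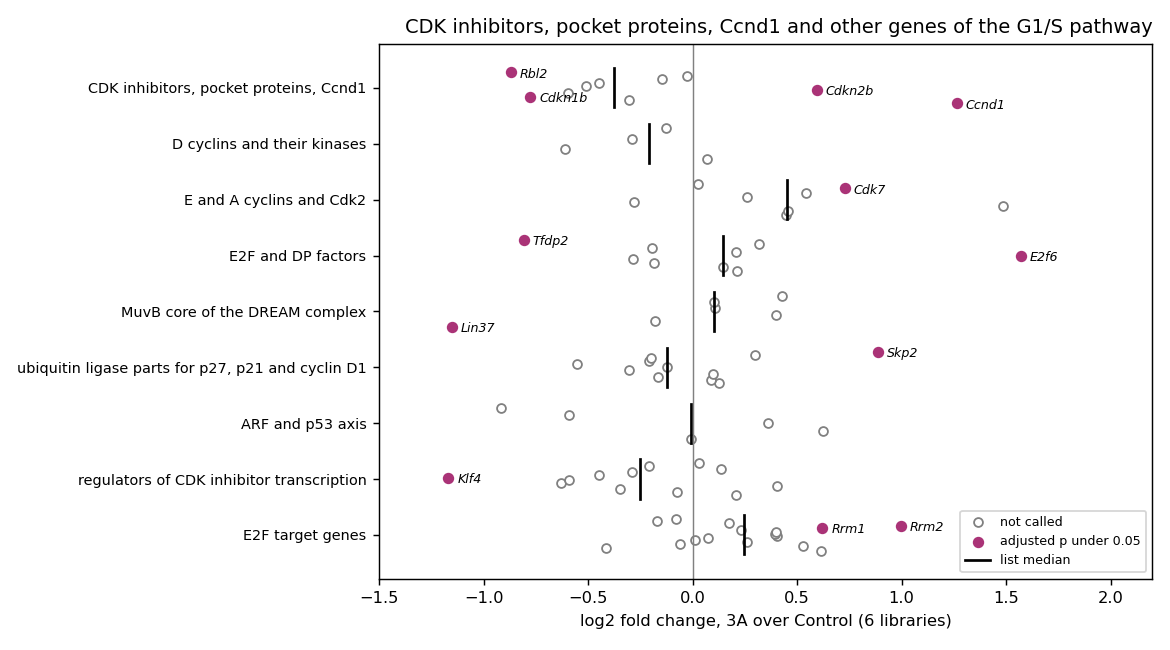
Log2 fold change of 3A over Control (6 libraries) for the 10 genes in the top line and for 8 lists of other G1/S genes. Each point is 1 gene, filled where the adjusted p is under 0.05, and the bar is the list's median. The E and A cyclin list has the highest median (0.45) and the CDK inhibitors with the pocket proteins and Ccnd1 the lowest (-0.38).

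Skp2 encodes the F-box protein that marks p27 for degradation. It rose, with 19.3, 13.8 and 15.5 CPM in Control 1, 2 and 3, then 26.4, 31.3 and 32.4 CPM in 3A 1, 2 and 3 (log2 fold change 0.89, SE 0.18, edgeR adjusted p = 0.0199). With group alone, Skp2 was the only called gene of 11 listed for the ubiquitin ligases of p27, p21 and cyclin D1, Gsk3b among them. With the mitochondrial share as a covariate, edgeR also called Rbx1 higher and Fbxo31 lower, against 18.3% of all genes. Without Control 1, edgeR called Skp2 higher and Fbxw7 and Rbx1 lower, against 52% of all genes. Skp2 was called in 2 of the 6 fits with a library left out. Its partner gene Cks1b had a log2 fold change of 0.09 and was not called.

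Of 9 tested E2F and DP genes, E2f6 rose and Tfdp2 fell. E2f6, an E2F that represses transcription without binding pocket proteins, gave 32.0, 14.3 and 10.6 CPM in Control 1, 2 and 3, then 41.8, 63.7 and 63.5 CPM in 3A 1, 2 and 3 (log2 fold change 1.57, edgeR adjusted p = 0.0469). Tfdp2, a dimerization partner of E2Fs, ranged from 22.6 to 24.8 CPM in Control and from 12.2 to 15.1 CPM in 3A (log2 fold change -0.81, edgeR adjusted p = 0.0147). The activator genes E2f1 and E2f3 (0.21 and 0.15) and E2f4, the usual partner of p130 (-0.18), were not called.

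The MuvB core joins p130 or p107 in the DREAM repressor, and its list here also held Mybl2. Lin37 of the core fell, from a mean of 15.9 ± 5.57 CPM to 7.15 ± 1.29 CPM (SD, n = 3), with a log2 fold change of -1.15 (edgeR adjusted p = 0.0460). Control 1, at 9.48 CPM, lay close to 3A. The other 5 of the 6 listed genes were not called. Of the E and A cyclins with Cdk2 and its activators, Cdk7, the catalytic part of the CDK-activating kinase, rose (log2 fold change 0.73, edgeR adjusted p = 0.0476), 1 of 8. Ccne2 measured 20.2 (Control 1), 5.26 (Control 2) and 5.35 CPM (Control 3) against 7.99 (3A 1), 38.5 (3A 2) and 40.2 CPM (3A 3) and was not called (edgeR adjusted p = 0.195). Its libraries differed several-fold within each group. Ccne1 ranged from 48.6 to 53.3 CPM in Control and from 65.7 to 73.2 CPM in 3A (log2 fold change 0.45, edgeR adjusted p = 0.0614). Ccna2 (0.45, edgeR adjusted p = 0.118) was not called either, and neither gene overlapped between groups. DESeq2 and the edgeR fit with the mitochondrial share called Ccne1 higher, against 26.0% and 18.3% of all genes.

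Of 16 E2F target genes, 2 rose, both for ribonucleotide reductase, the enzyme that makes deoxynucleotides. Rrm2 averaged 177 ± 11.5 CPM in Control and 354 ± 19.6 CPM in 3A with SD over n = 3 (log2 fold change 1.00, edgeR adjusted p = 0.00475), and Rrm1 had a log2 fold change of 0.62 (edgeR adjusted p = 0.0441). Rrm2 was called in all 6 fits with a library left out, and of the other 7 called pathway genes none was called in more than 2 of them. The median of the 16 was 0.25, and the replication helicase gene Mcm3 (0.01) and Pcna (0.23) were not called. Chek1 (0.53, edgeR adjusted p = 0.0502) and Cdc6 (0.62, edgeR adjusted p = 0.0545) just missed the threshold, with no overlap between groups. DESeq2 called 4 of the 16 higher, Cdc6, Chek1, Rrm1 and Rrm2, against 26.0% of all genes. With the mitochondrial share as a covariate, edgeR called Pcna, Tk1 and Rrm2 higher but not Rrm1, against 18.3% of all genes.

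Klf4, which encodes a keratinocyte transcription factor known to act on Cdkn1a, was the 1 called gene of 12 regulators of CDK inhibitor transcription. It fell, with means of 124 ± 31.0 CPM and 55.2 ± 10.9 CPM (SD, n = 3) and a log2 fold change of -1.17 (edgeR adjusted p = 0.0208). The 6 Polycomb genes of that list were not called and went both ways, with log2 fold changes of 0.40 for Ezh2, 0.21 for Bmi1, 0.13 for Rnf2, -0.07 for Cbx7, -0.29 for Ring1 and -0.35 for Cbx8. Foxo1 (-0.63) and Foxo3 (-0.59), whose products act on Cdkn1b, were not called by edgeR with group alone, though their groups did not overlap. DESeq2 called 3 of the 12 lower, Klf4, Foxo1 and Foxo3, against 26.0% of all genes. EdgeR also called Foxo3 lower with the mitochondrial share as a covariate (18.3% of all genes called) and Foxo1 lower without Control 1 (52% called). In the ARF and p53 axis edgeR and DESeq2 called 0 of 5 genes, with 1 higher and 1 lower at an unadjusted p under 0.05. Without Control 1, edgeR called 4 of the 5, with Mdm2 and Mdm4 higher and Npm1 and Trp53 lower, in a fit that called 52% of all tested genes. Trp53 measured 191 (Control 1), 379 (Control 2) and 433 CPM (Control 3) against 259 (3A 1), 144 (3A 2) and 129 CPM (3A 3). As with Cdkn2a, Control 1 lay within the range of 3A and 3A 1 lay above the other libraries of its group.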

How the data were processed

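The authors deposited 1 table of whole-number read counts for each gene and library, with no scaling. Per the submitters' processing notes, the tools were featureCounts, Trim Galore, limma and edgeR, and the builds GRCh38, hg38 and mm10, with no roles or versions. Which aligner, annotation and strand setting they used is not stated there. Symbols, positions and merged exon lengths came from GENCODE M21 (GRCm38). Of the gene IDs, 48970 matched the table of gene names and 345 did not.

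The test was edgeR's quasi-likelihood test (version 4.0.16, R 4.3.3), after filterByExpr and TMM scaling, with a term for group alone (common biological coefficient of variation 0.264). CPM use TMM-scaled library sizes, and correlations use log2 CPM with a prior count of 1. SEs were derived from the fold change and F statistic. One count was worth 0.0267 to 0.0425 CPM. Replicate pairs had a chi-square per degree of freedom of at least 14.5, so none was a repeated library. Steps were tested on simulated data.

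The 10 genes and the lists were chosen with earlier results of these data known. All 10 are named. Called list genes (at most 4 per list) and direct partners could be named; other uncalled list genes were picked after their values were seen. Alternatives were other scalings and filters, DESeq2 1.42.0, limma-voom (limma 3.58.1), robust fitting, a replicate block, a threshold of 0.01, and leaving out each library. A fit with the mitochondrial share was added after seeing the data.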

Additional observations from a re-analysis of the deposited data

How the results depend on the processing

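Changes of scaling, filter or tool kept the direction of the 4 called genes. Over all tested genes, DESeq2 called 1678 higher and 1887 lower in 3A, an adjusted p under 0.01 left 364 and 352, and a replicate block left 142 and 146. Of the 13704 tested genes, library size alone called 965 higher and 811 lower, and upper quartile scaling 1072 and 1016. On the same genes limma-voom called 1084 and 997, and robust fitting 991 and 970. With no low-count filter, where more genes were tested, 1022 and 1094 were called. Leaving out 1 library gave 346 to 3751 higher and 318 to 3690 lower. Of the 10 genes, 0 higher and 0 lower were called at an adjusted p under 0.01 (edgeR, 6 at an unadjusted p under 0.05) or with the replicate block (4 at an unadjusted p under 0.05). Scaling by library size alone gave 2 higher and 1 lower, as Rbl2 missed the threshold, and no low-count filter gave 1 higher and 2 lower, as Cdkn2b did. Leaving out 1 library gave 0 to 2 higher and 0 to 5 lower. Among the 71 tested G1/S pathway genes, DESeq2 called 10 higher and 5 lower, against 26.0% of all genes. Library size alone called 2 higher, limma-voom 2 lower, upper quartile scaling 7 higher and 2 lower, no filter 3 higher, and robust fitting 3 higher. The threshold of 0.01 left 1 higher and 0 lower, the replicate block 0 and 0, and leaving out 1 library 1 to 22 and 0 to 13. The causes of these differences were not tested.

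Uncalled genes changed sign in some fits. Rbl1 had a log2 fold change of 0.039 with library size alone, 0.0023 with no filter, and, over the fits with 1 library left out, from -0.12 (without 3A 3) to 0.11 (without 3A 1, and 0.02 without Control 1), and Cdkn2a had 0.26 with the mitochondrial share as a covariate. Samples with the same replicate number did not deviate alike from their group means. Their deviations correlated at -0.66, -0.42 and -0.38 for numbers 1, 2 and 3, and no sample correlated best with its own number. Deviations within a group of 3 libraries are tied to each other, so these values cannot show whether samples were prepared in pairs. Depth does not limit the 10 genes, the lowest having 407 counts in a library.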

Other observations

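The genes whose pattern over the 6 libraries lay nearest to that of Cdkn1b, by Euclidean distance between centred log2 CPM, were Epha1 (distance 0.12), Tnfrsf22 (0.16) and Creb3l2 (0.16), among genes with a mean of at least 5 CPM. Epha1, which encodes an Eph receptor, had 46.5, 45.6 and 45.4 CPM in Control 1, 2 and 3, then 24.4, 25.5 and 26.5 CPM in 3A 1, 2 and 3. This ranking describes 6 libraries in 2 groups, with no test.

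At the INK4 locus, the ratio of Cdkn2b to Cdkn2a in CPM per kb was 0.289, 0.140 and 0.108 for Control 1, 2 and 3, compared with 0.278, 0.403 and 0.408 for 3A 1, 2 and 3. Control 1 and 3A 1 were close, and the other libraries of the groups lay far apart. Cdkn2b itself differed little within Control, so the spread of the ratio there was mostly that of Cdkn2a. Ccnh, the cyclin partner of Cdk7, had 50.9 CPM in Control 1, 81.0 and 86.9 CPM in Control 2 and Control 3, and 53.7 to 68.5 CPM in 3A, with no call.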
